A study of Mus musculus with 15 samples.

Results

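Mpeg1 and 7 other genes with which phagocytes kill what they have engulfed were followed in the whole blood of mice given the BET bromodomain inhibitor ABBV-075 (mivebresib). The 8 genes were chosen by symbol, and they are 8 of 18193 genes that had a probe set of their own on the array. Mpeg1 was chosen by its lower level after treatment, so its values are given as a description, with no test. The other 7, Cybb, Cyba, Ncf1, Ncf4, Rac2, Slc11a1 and Lyz2, were chosen as genes of the phagocyte oxidase or as antimicrobial genes. All 8 were among the 12499 genes bright enough to be tested. The Affymetrix mouse arrays formed 3 groups of 5: vehicle, ABBV-075 at 1 mg/kg and ABBV-075 at 5 mg/kg, with blood taken 6 h after dosing. Each array was taken as 1 mouse. All 15 mice were sampled at that single time. The labels state no strain, sex, age, route or vehicle composition. The series set out to find markers in blood that respond to the compound.

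Phagocytes, mainly neutrophils and monocytes in blood, enclose microbes in a phagosome and attack them there by several routes. The NADPH oxidase passes electrons across the phagosome membrane to make superoxide. Its membrane part is a pair of proteins, gp91phox (Cybb), which carries the electrons, and p22phox (Cyba), which stabilises it. The cytosolic subunits p47phox (Ncf1) and p40phox (Ncf4) and the small GTPase Rac2 join that pair when the cell is activated. Perforin-2 (Mpeg1) forms pores in engulfed bacteria, Nramp1 (Slc11a1) pumps metal ions such as iron and manganese out of the phagosome, and lysozyme M (Lyz2) cuts the bacterial cell wall. BET proteins bind acetylated histones and help transcription start and elongate, and inhibitors such as ABBV-075 displace them from chromatin.

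The sequence just before the transcription start is shown for Mpeg1, for Cybb and Slc11a1, whose arrays at 5 mg/kg lay below all vehicle arrays, and for Cyba, whose arrays overlapped. Sequences were taken from RefSeq on GRCm38.p6, and 6 of the 8 genes were matched there, the others being Ncf4 and Rac2. Each is the 250 bases before the start, written 5′ to 3′ on the strand of the gene, and capitals mark a match to a motif searched. The coordinates are chr19:12460520-12460769 (plus strand) for Mpeg1, chrX:9469325-9469574 (minus strand) for Cybb, chr1:74374953-74375202 (plus strand) for Slc11a1 and chr8:122432941-122433190 (minus strand) for Cyba.
Mpeg1: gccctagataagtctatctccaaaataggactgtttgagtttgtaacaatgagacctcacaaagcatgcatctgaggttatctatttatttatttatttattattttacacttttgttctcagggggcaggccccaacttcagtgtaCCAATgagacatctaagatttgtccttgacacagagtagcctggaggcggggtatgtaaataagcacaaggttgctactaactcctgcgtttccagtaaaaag
Cybb: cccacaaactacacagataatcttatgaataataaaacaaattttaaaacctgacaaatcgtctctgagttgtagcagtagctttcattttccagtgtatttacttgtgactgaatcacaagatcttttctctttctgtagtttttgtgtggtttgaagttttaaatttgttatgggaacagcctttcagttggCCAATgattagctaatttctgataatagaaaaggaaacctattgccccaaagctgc
Slc11a1: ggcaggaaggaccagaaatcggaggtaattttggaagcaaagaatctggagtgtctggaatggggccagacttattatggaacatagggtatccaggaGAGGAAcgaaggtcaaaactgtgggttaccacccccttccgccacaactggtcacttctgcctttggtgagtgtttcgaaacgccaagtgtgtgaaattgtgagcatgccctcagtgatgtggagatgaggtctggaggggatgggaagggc
Cyba: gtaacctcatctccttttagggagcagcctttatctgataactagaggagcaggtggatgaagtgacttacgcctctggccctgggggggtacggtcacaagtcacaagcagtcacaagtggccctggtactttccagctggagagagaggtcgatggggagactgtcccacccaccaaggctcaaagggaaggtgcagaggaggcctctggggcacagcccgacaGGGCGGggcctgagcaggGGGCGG
The motifs, picked after the sequences had been seen, were searched on both strands and do not overlap each other. CCAAT, the CCAAT box, stood 103 bases before the start of Mpeg1 and 56 before that of Cybb, and 33.8% of 32851 promoter windows of this length held it. GAGGAA, 1 form of the sequence bound by the myeloid factor PU.1, was found in Slc11a1 alone of the 6, 152 bases before the start, and in 23.3% of all windows. The shorter GGAA within it was not searched. GGGCGG, the GC box, was found in Cyba at 24 and 6 bases before the start and in Ncf1 at 42 bases on the opposite strand, and in 32.7% of all windows. TTGCNNAA, a C/EBP-like motif, was in 0 of the 6 and in 9.56% of all windows. These matches describe the letters of the windows and no binding was measured.

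Medians per array of the deposited intensities ran from 3.61 to 25.4, with no common scale, so values below are quantile-normalised intensities unless said otherwise. Normalised intensities of different genes come from different probes and are not compared with each other. Across all tested genes 11 passed an adjusted p of 0.05 at 5 mg/kg against vehicle (0.088%), 1 at 1 mg/kg against vehicle (0.008%) and 0 between the doses (0%; limma, with 658 genes higher at 5 mg/kg, or 5.26%, at an unadjusted p under 0.05). Adjusted p-values below are from limma with Benjamini-Hochberg adjustment over these 12499 genes, and a ± beside a log2 difference is its SE with n = 5 per group. The labels give each array a replicate number within its group, and each array was taken as a separate mouse.

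Mpeg1 (Entrez 17476) was lower at both doses than on any vehicle array, and lowest at 5 mg/kg. Its normalised intensities were 314, 262, 365, 322 and 346 with vehicle. They were 148, 180.3, 129, 150.3 and 70.2 at 1 mg/kg and 108, 63.1, 111, 55 and 37.4 at 5 mg/kg. No treated array reached the lowest vehicle array, and all 5 arrays at 5 mg/kg lay below 4 of the 5 at 1 mg/kg, the exception being 1 mg/kg replicate 5. The log2 difference from vehicle was -2.22 ± 0.31 at 5 mg/kg, a 4.65-fold lower level, and -1.31 ± 0.31 at 1 mg/kg, 2.47-fold lower. Between the doses it was -0.91 ± 0.31. The arrays also scattered more after treatment: the SD of the log2 intensity went from 0.18 in the vehicle group to 0.52 and 0.67 in the 1 and 5 mg/kg groups (n = 5 each). In the deposited values without scaling the vehicle arrays ran from 239.9 to 327, the 5 mg/kg arrays from 33.0 to 120 and the 1 mg/kg arrays from 37.9 to 289, so on that scale only 5 mg/kg stayed clear of vehicle. One probe set, above the floor of 16 on all 15 arrays, measures the gene. In bulk blood, fewer cells of a type and less RNA per cell cannot be told apart.

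**Figure D1:**
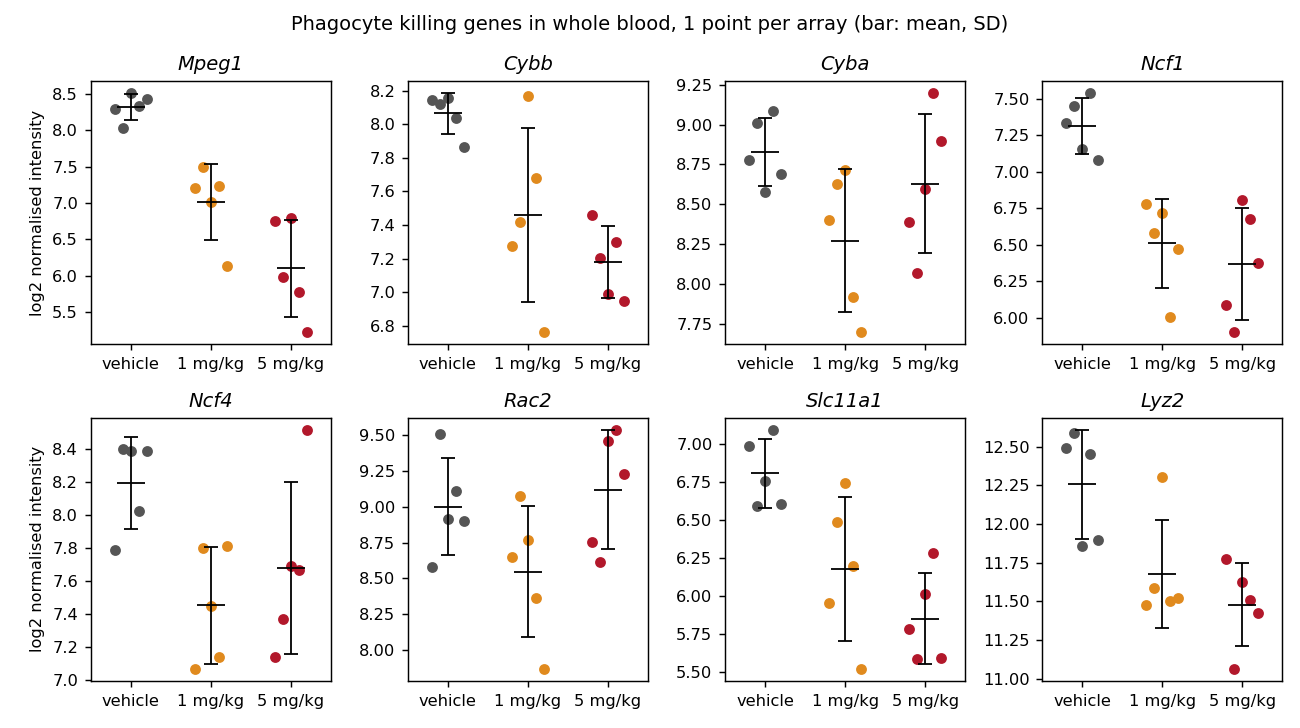
Log2 quantile-normalised intensity (vertical axis) of each of the 8 genes in vehicle, 1 mg/kg and 5 mg/kg mice, 1 point per array, with the mean and SD as a black bar. Mpeg1, Cybb, Ncf1, Slc11a1 and Lyz2 sit below every vehicle array at 5 mg/kg, whereas Cyba, Ncf4 and Rac2 overlap with vehicle.

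Of the membrane pair of the oxidase, Cybb lay below all vehicle arrays at 5 mg/kg and Cyba overlapped with them, and the difference between the 2 genes was not tested. Cybb (Entrez 13058), the electron-carrying subunit, had intensities of 283, 279, 286, 262 and 233 with vehicle, 155, 171, 287, 205 and 108 at 1 mg/kg and 176, 147, 127, 157 and 124 at 5 mg/kg. Every 5 mg/kg array lay below every vehicle array, while 1 mg/kg replicate 3 was as high as the highest vehicle array. The log2 difference was -0.88 ± 0.23 at 5 mg/kg (1.85-fold lower, adjusted p = 0.170) and -0.60 ± 0.23 at 1 mg/kg (adjusted p = 0.771), and neither passed. Its other probe sets gave -0.71 ± 0.26 and -0.93 ± 0.28 at 5 mg/kg and -0.35 ± 0.26 and -0.45 ± 0.28 at 1 mg/kg, the same sign as the brightest. The first of these overlapped with vehicle at 5 mg/kg, its highest array there being 135 and its lowest vehicle array 122. For the other, the highest 5 mg/kg array was 53.0 and the lowest vehicle array 55.2.

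Cyba (Entrez 13057), the partner of Cybb, had intensities of 438, 515, 381, 542 and 413 with vehicle, 338, 395, 421, 242 and 208 at 1 mg/kg and 335, 269, 387, 588 and 477 at 5 mg/kg. The groups overlapped at both doses, and at 5 mg/kg replicate 4 was the highest array of all 15. Its log2 difference was -0.55 ± 0.25 at 1 mg/kg (adjusted p = 0.818) and -0.20 ± 0.25 at 5 mg/kg (95% interval -0.72 to 0.33, adjusted p = 0.926). That interval includes 0 and reaches a decrease of 0.72, so it does not show that Cyba kept its level.

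Of the cytosolic subunits, Ncf1 lay below all vehicle arrays at both doses, while Ncf4 and Rac2 overlapped with vehicle, with no test of the difference between them. Ncf1 (Entrez 17969), the organiser subunit p47phox, had intensities of 162, 175, 142, 186 and 135 with vehicle, 109.5, 95.4, 105, 64.3 and 88.5 at 1 mg/kg and 67.8, 59.7, 112, 102 and 82.9 at 5 mg/kg. All 10 treated arrays lay below all 5 vehicle arrays, and Ncf1 was the only one of the 7 genes chosen by function for which that held at 1 mg/kg. The log2 difference was -0.95 ± 0.21 at 5 mg/kg (1.93-fold lower, adjusted p = 0.124) and -0.80 ± 0.21 at 1 mg/kg (adjusted p = 0.455). A second, dimmer probe set gave -0.99 ± 0.37 and -0.38 ± 0.37, and another was above the floor on 4 arrays and was not tested. The second probe set overlapped with vehicle at both doses. Its lowest vehicle array was 41.9, and its highest arrays were 79.3 at 1 mg/kg and 60.1 at 5 mg/kg. Ncf1 passed at 5 mg/kg when limma weighted arrays by their quality (log2 -0.98, adjusted p = 0.035, with 65 genes called in all). Over all 32 alternatives its adjusted p there ran from 0.035 to 1.00.

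Ncf4 (Entrez 17972), which encodes the lipid-binding subunit p40phox, had intensities of 221, 338, 335, 260.3 and 335 with vehicle, 134, 223, 175, 141 and 225 at 1 mg/kg and 141, 165, 207, 203 and 367 at 5 mg/kg. Both doses overlapped with vehicle: 5 mg/kg replicate 5 was the highest array of all 15, and 2 arrays at 1 mg/kg lay just above the lowest vehicle array. The log2 difference was -0.74 ± 0.26 at 1 mg/kg (adjusted p = 0.739) and -0.52 ± 0.26 at 5 mg/kg (adjusted p = 0.678). Without 5 mg/kg replicate 5 the Ncf4 difference at that dose was -0.73.

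Rac2 (Entrez 19354), the GTPase subunit made by many blood leukocytes, had intensities of 382, 726, 482, 551 and 479 with vehicle, 402, 540.2, 435, 330.1 and 234 at 1 mg/kg and 431, 392, 702, 742 and 600.5 at 5 mg/kg. It was the only one of the 7 genes with a higher mean at 5 mg/kg than with vehicle, by 0.12 ± 0.26 (95% interval -0.44 to 0.67, adjusted p = 0.967), and with the 18S signal as a covariate that difference was -0.10. At 1 mg/kg the difference from vehicle was -0.45 ± 0.26 (adjusted p = 0.850). A dim second probe set, above the floor on 14 arrays, gave 0.55 ± 0.28 at 5 mg/kg and 0.25 ± 0.28 at 1 mg/kg, the opposite sign of the brighter one at the lower dose.

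The metal pump and the lysozyme were also lower than on any vehicle array at 5 mg/kg. Slc11a1 (Entrez 18173) had intensities of 127, 96.4, 108, 137 and 97.5 with vehicle, 62.1, 89.9, 107, 73.4 and 46.0 at 1 mg/kg and 55.2, 48.0, 64.8, 77.9 and 48.2 at 5 mg/kg. At 5 mg/kg the arrays did not overlap with vehicle, and at 1 mg/kg replicate 3 alone reached into the vehicle range. The log2 difference was -0.96 ± 0.23 at 5 mg/kg (1.94-fold lower, adjusted p = 0.152) and -0.63 ± 0.23 at 1 mg/kg (adjusted p = 0.771).

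Lyz2 (Entrez 17105) had intensities of 5763, 6154, 3710, 5609 and 3804 with vehicle, 2844, 3069, 5048, 2893 and 2940 at 1 mg/kg and 3502, 2138, 3151, 2908 and 2746 at 5 mg/kg. Again no 5 mg/kg array reached the lowest vehicle array, and again 1 mg/kg replicate 3 stood above the rest of its group. The log2 difference was -0.78 ± 0.22 at 5 mg/kg (1.72-fold lower, adjusted p = 0.262) and -0.58 ± 0.22 at 1 mg/kg (adjusted p = 0.782). Lyz1, the near-identical gut lysozyme gene, gave -0.73 ± 0.23 and -0.62 ± 0.23. The 2 genes are close enough in sequence that their probe sets may read each other's transcript.

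**Figure D2:**
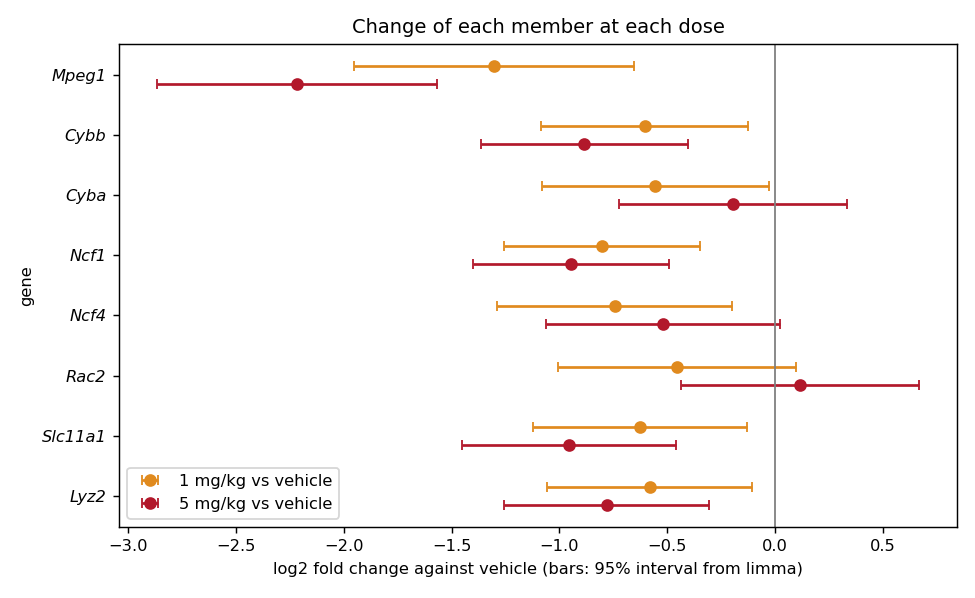
Log2 fold change against vehicle (horizontal axis) of each gene at 1 mg/kg and 5 mg/kg, with 95% intervals from the limma fit on 15 arrays. Mpeg1, chosen by its decrease, is farthest from 0, the intervals of Cybb, Ncf1, Slc11a1 and Lyz2 lie below 0 at both doses, and those of Cyba, Ncf4 and Rac2 include 0 at 5 mg/kg.

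Counted together, 6 of the 7 genes other than Mpeg1 were lower at 5 mg/kg than with vehicle and 7 of 7 were lower at 1 mg/kg, and 0 of 7 passed the adjusted threshold at either dose. At an unadjusted p under 0.05 in limma, 4 of 7 were lower at 5 mg/kg, where 4.26% of all tested genes were, and 6 of 7 were lower at 1 mg/kg, where 4.06% were. Arrays below all vehicle arrays were seen for 4 of 7 at 5 mg/kg (1.46% of all tested genes) and for 1 of 7 at 1 mg/kg (0.72%). The median log2 difference of the 7 was -0.78 at 5 mg/kg and -0.60 at 1 mg/kg, against -0.03 and -0.02 over all tested genes. The 4 genes at 5 mg/kg were Cybb, Ncf1, Slc11a1 and Lyz2. These counts read each gene from its brightest probe set, and a dimmer probe set of Cybb and of Ncf1 overlapped with vehicle at 5 mg/kg. Both comparisons share the 5 vehicle arrays.

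These counts leaned on the scaling and, at 1 mg/kg, on single arrays. In the deposited values without scaling, 0 of 7 were free of overlap at either dose, and 0 and 1 had an unadjusted p under 0.05 in limma at 5 and 1 mg/kg. The shares of all tested genes were smaller there too, at 0.401% and 0.153% free of overlap and 0.787% and 0.699% lower at that p. Without 1 mg/kg replicate 3 the number free of overlap at 1 mg/kg went from 1 to 4 (Cybb, Ncf1, Slc11a1 and Lyz2), where 1.26% of all genes were. It was 2 (Ncf1 and Ncf4) without vehicle replicate 1 (2.1% of all genes) and with cyclic loess scaling (0.572%). With cyclic loess all 18193 genes passed the filter, against 12499 in the standard setting, so that share also covers dim genes. The number with an unadjusted p under 0.05 at 1 mg/kg was 3 without 1 mg/kg replicate 5 (3.79% of all genes), which held the lowest value of its group for Mpeg1, Cybb, Cyba, Rac2 and Slc11a1, and also 3 without vehicle replicates 1 and 2 together (3.78%).

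Between the doses, the 7 genes split. Cybb (-0.28 ± 0.23), Ncf1 (-0.14 ± 0.21), Slc11a1 (-0.33 ± 0.23) and Lyz2 (-0.20 ± 0.22) had lower means at 5 mg/kg than at 1 mg/kg, and Cyba (0.36 ± 0.25), Ncf4 (0.22 ± 0.26) and Rac2 (0.57 ± 0.26) had higher means. Without scaling between arrays the signs of Ncf1 and Lyz2 turned (0.06 and 0.05). Rac2 alone had an unadjusted p under 0.05 (adjusted p = 0.620, limma), where 5.26% of all tested genes were higher. The 95% intervals of the other 6 include 0.

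Monocyte markers were lower on the same arrays. Of 18 tested markers, 17 were lower at 5 mg/kg and 16 at 1 mg/kg, with median log2 differences of -0.83 and -0.76 and 0 past the adjusted threshold (limma). At an unadjusted p under 0.05 in limma 9 were lower at each dose, as were 4.26% of all tested genes at 5 mg/kg and 4.06% at 1 mg/kg. Averaged per array, the markers stood at 6.90 ± 0.23 (log2, SD, n = 5, 6.59 to 7.15) in vehicle mice. The 1 mg/kg mice had 6.20 ± 0.31 (5.74 to 6.53) and the 5 mg/kg mice 6.04 ± 0.11 (5.88 to 6.19). Ccr2, the receptor with which monocytes leave the marrow, was at -1.77 ± 0.37 at 5 mg/kg (adjusted p = 0.0905), the growth factor receptor Csf1r at -0.86 ± 0.40 and the endotoxin co-receptor Cd14 at -1.26 ± 0.62. At 5 mg/kg the mean log2 intensity was 8.02 for Csf1r and 5.17 for Ccr2, above the floor of 4 on that scale, and 4.25 for Cd14, close to it.

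Neutrophil markers overlapped with vehicle as a mean at both doses, and their difference from the monocyte markers was not tested. Of 12 tested, 8 were lower at 5 mg/kg (median -0.11) and 9 at 1 mg/kg (median -0.40), with 0 past the adjusted threshold (limma). At an unadjusted p under 0.05 in limma 1 and 2 were lower at 5 and 1 mg/kg, as were 4.26% and 4.06% of all tested genes. The mean of these markers per array ranged over 6.17 to 6.93 with vehicle, 5.78 to 6.64 at 1 mg/kg and 5.74 to 6.87 at 5 mg/kg. The alarmin genes S100a8 and S100a9 were at -0.57 ± 0.37 and -0.17 ± 0.37 at 5 mg/kg, the growth factor receptor Csf3r at -0.22 ± 0.60 and the chemokine receptor Cxcr2, above the floor on 7 arrays, at -0.05 ± 0.58. At 1 mg/kg these 4 genes were at -0.80, -0.49, -1.22 and -0.84, and the monocyte markers Ccr2, Csf1r and Cd14 at -0.80, 0.05 and -0.22. Control probes for 18S ribosomal RNA, which were not normalised, were also dimmer after treatment. In the deposited values without scaling, vehicle arrays averaged 11.19 ± 0.94 (log2, SD, n = 5), the 1 mg/kg arrays 9.97 ± 0.43 and the 5 mg/kg arrays 9.42 ± 0.42.

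The level of each gene was also set against the monocyte markers of the same array, as a description chosen after the values had been seen. The marker mean itself differed from vehicle by -0.86 at 5 mg/kg and -0.71 at 1 mg/kg, so a gene with no change of its own stands higher by that much in this measure. For Mpeg1 the log2 intensity minus the marker mean went from 1.42 ± 0.37 in vehicle mice (SD, n = 5) to 0.82 ± 0.36 at 1 mg/kg and 0.06 ± 0.72 at 5 mg/kg, with all 5 arrays at 5 mg/kg below all vehicle arrays. For Cybb, Ncf1, Slc11a1 and Lyz2 it differed from vehicle by -0.03, -0.09, -0.10 and 0.08 at 5 mg/kg and by 0.10, -0.10, 0.08 and 0.12 at 1 mg/kg, less than the SD of the treated arrays in each case. For Cyba, Rac2 and Ncf4 it differed by 0.66, 0.97 and 0.34 at 5 mg/kg, beside the marker mean's -0.86 and their own differences of -0.20, 0.12 and -0.52. At 1 mg/kg the same 3 genes gave 0.15, 0.25 and -0.04. The part of the monocyte markers and of the 18S signal in the differences from vehicle was not tested.

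**Figure D3:**
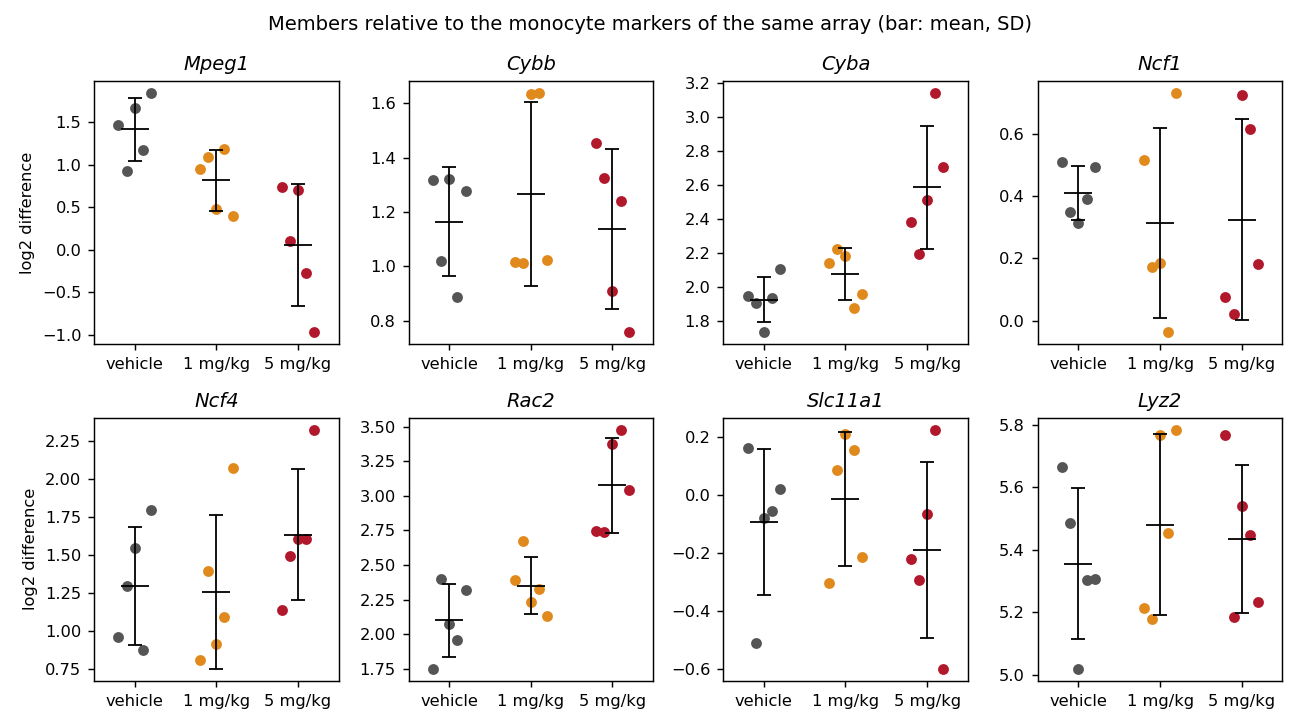
Log2 intensity of each gene minus the mean log2 intensity of the 18 monocyte markers on the same array (vertical axis), 1 point per array in each group of 5, with the mean and SD as a black bar. Mpeg1 is lower at 5 mg/kg than on any vehicle array, and Cybb, Ncf1, Slc11a1 and Lyz2 overlap with vehicle at both doses. A gene with no change of its own would stand 0.86 higher at 5 mg/kg, since the marker mean is lower by that much.

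With the monocyte marker mean as a covariate in the fit, the log2 difference at 5 mg/kg was -1.86 for Mpeg1, -0.22 for Cybb, -0.33 for Ncf1, -0.12 for Slc11a1, -0.04 for Lyz2 and -0.41 for Ncf4. For Cyba it turned to 0.93 and for Rac2 it grew to 1.23 (adjusted p = 0.436 and 0.324, limma). With the 18S signal as a covariate the differences were -1.99 for Mpeg1, -0.57 for Cybb, -1.21 for Ncf1, -0.99 for Slc11a1, -0.55 for Lyz2, -0.92 for Ncf4, -0.47 for Cyba and -0.10 for Rac2. Of all tested genes 0 passed at 5 mg/kg in either fit, against 11 without a covariate. The marker means of vehicle and 5 mg/kg arrays did not overlap (6.59 to 7.15 against 5.88 to 6.19). Nor did the 18S signals (10.24 to 12.31 against 8.83 to 9.88), so these fits cannot separate either covariate from the dose. B and T cell markers, which belong to cells that also make Rac2 and Cyba, were higher in 7 of 9 and 8 of 10 cases at 5 mg/kg, with medians of 0.49 and 0.23 and 0 past the adjusted threshold (limma; 2 and 1 higher at an unadjusted p under 0.05, as were 3.51% of all genes). At 1 mg/kg they went the other way, with 7 of 9 and 8 of 10 lower and medians of -0.31 and -0.25. Their part in the values of Rac2 and Cyba was not tested.

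The genes with the array profile nearest to that of Mpeg1 were found by centring each gene's log2 values over the 15 arrays and taking the root mean square difference from Mpeg1. The median over all other tested genes was 1.11, and Mpeg1's own spread about its mean was 1.01. Dpagt1, which starts the assembly of N-linked glycans, was nearest at 0.518. It was followed by Ptpro, a receptor phosphatase, at 0.545, Pla2g7, a secreted hydrolase of platelet-activating factor, at 0.572, Clec4a3, a C-type lectin receptor, at 0.583 and Smpdl3a, a phosphodiesterase, at 0.605. At 5 mg/kg Dpagt1 was above the floor on 3 arrays, Ptpro on 2, Pla2g7 and Clec4a3 on 4 and Smpdl3a on 5. The ranking is a description over arrays that share the 3 treatments, and no gene was tested for it.

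Of the 7 other genes, Slc11a1 ranked 11 of all tested genes by likeness to Mpeg1 (0.665), Cybb 21 (0.691), Ncf1 52 (0.741) and Lyz2 93 (0.778). Ncf4 ranked 2413 (1.00), Cyba 2611 (1.01) and Rac2 5635 (1.09), the last close to the median of all genes. The 4 nearest to Mpeg1 of the 7 were also the 4 free of overlap with vehicle at 5 mg/kg. Both measures use the same arrays, and Mpeg1 was chosen by its decrease there, so this is a description.

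**Figure D4:**
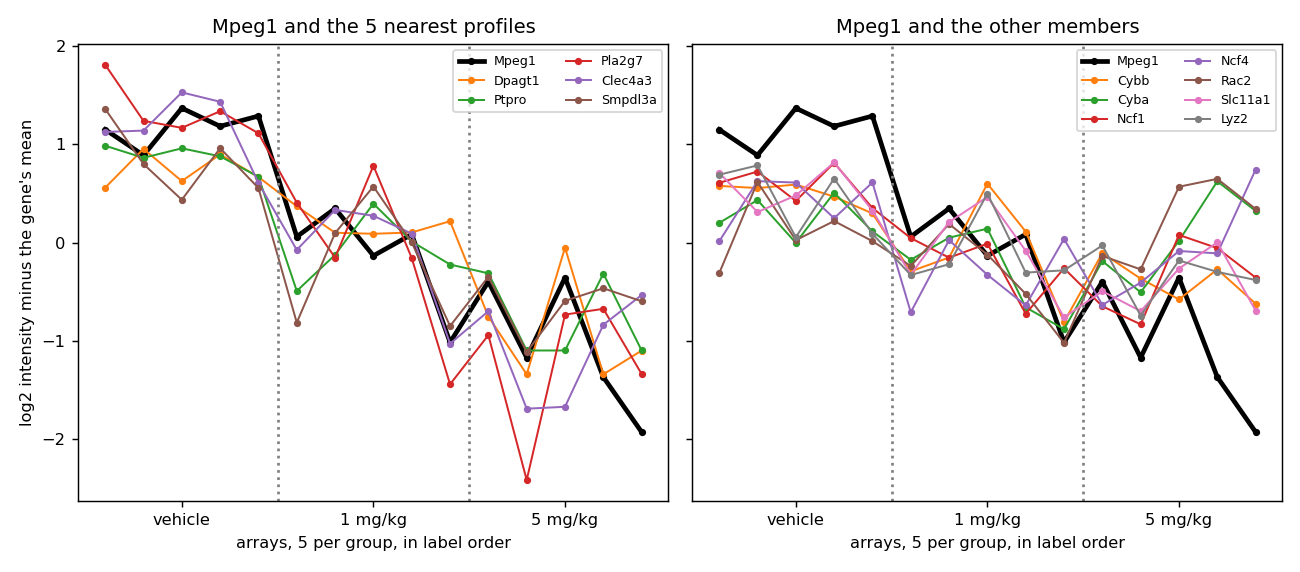
Log2 intensity minus the gene's own mean over 15 arrays (vertical axis) for Mpeg1 and the 5 genes of nearest profile (left) and for Mpeg1 and the other 7 genes (right); lines only join the points of a gene and dotted lines part the 3 groups of 5 arrays. Mpeg1, chosen by its decrease, spans a wider range than the other killing genes. The means of Rac2 and Cyba are nearer to vehicle at 5 mg/kg than at 1 mg/kg.

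Other genes of the oxidase showed no common direction at 5 mg/kg. Of 12 tested among 21 listed, 6 were lower at 5 mg/kg and 10 at 1 mg/kg, with median log2 differences of -0.03 and -0.30 and 0 past the adjusted threshold (limma). At an unadjusted p under 0.05 in limma 1 and 2 were lower at 5 and 1 mg/kg, as were 4.26% and 4.06% of all tested genes. Pla2g4a, the cytosolic phospholipase that releases arachidonate, was at -0.76 ± 0.30 at 5 mg/kg, Prkcb, a kinase that phosphorylates p47phox, at 0.38 ± 0.24 and Cybc1, the chaperone of the membrane pair, at 0.24 ± 0.21. Rac1, the near relative of Rac2, was at -0.12 ± 0.22.

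Most tested genes of uptake and of the lysosome were lower than with vehicle. Of 16 uptake receptors 15 were lower at 5 mg/kg (median -0.45) and 11 at 1 mg/kg (median -0.24), and of 21 lysosomal genes 18 were lower at each dose (medians -0.17 and -0.25), with 0 past the adjusted threshold in both lists (limma; 5 lower in each list at 5 mg/kg at an unadjusted p under 0.05). Over all tested genes 53.4% were lower at 5 mg/kg and 53% at 1 mg/kg, and 4.26% were lower at that p at 5 mg/kg. The genes named here had the smallest p of their list at 5 mg/kg. Clec7a, the beta-glucan receptor Dectin-1, was at -1.71 ± 0.32 at 5 mg/kg (3.26-fold lower, adjusted p = 0.0580, limma), the scavenger receptor Cd36 at -0.68 ± 0.24 and the IgG receptor Fcgr3 at -0.62 ± 0.22, each with all 5 arrays below all vehicle arrays. That held for 4 of the 16 uptake receptors and for 1.46% of all tested genes. Hexa, a lysosomal hexosaminidase, was at -0.97 ± 0.20 (adjusted p = 0.0715, limma), and the proteases cathepsin S (Ctss) and cathepsin D (Ctsd) were at -0.89 ± 0.24 and -0.85 ± 0.29. Many of these genes are also expressed by monocytes, whose markers were lower on the same arrays, and the part of monocytes in these values was not tested.

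The remaining lists had medians from -0.16 to 0.02 at 5 mg/kg, against -0.03 over all genes, with 0 past the adjusted threshold in each (limma). The other pore formers, 6 tested, had 3 lower (median 0.00), with perforin (Prf1), the pore former of cytotoxic lymphocytes, at -0.18 ± 0.28. Of this list C6 was above the floor on 8 of 15 arrays and C8a on 9, so the median rests partly on dim genes. Granule and secreted antimicrobial proteins, 10 tested, had 6 lower (median -0.16), with the siderophore-binding Lcn2 at 0.56 ± 0.28 and the protease inhibitor Slpi at -0.78 ± 0.41. The vacuolar proton pump, which acidifies the phagosome, had 7 of 15 lower (median 0.02). Metal, nitric oxide and itaconate defence had 5 of 8 lower (median -0.09), with the copper pump Atp7a at 0.81 ± 0.25 and the interferon-induced GTPases Gbp2 and Irgm1 at -0.77 ± 0.37 and -0.74 ± 0.45. Antioxidant and NADPH supply enzymes had 7 of 11 lower (median -0.09), with Tkt and Taldo1 of the pentose phosphate pathway at 0.35 ± 0.21 and -0.28 ± 0.20. At 5 mg/kg and an unadjusted p under 0.05 in limma these 5 lists held 1 lower gene, Lyz1, and 1 higher, Atp7a, where 4.26% of all tested genes were lower and 3.51% higher. At 1 mg/kg 2 of the lists had medians farther from that of all genes (-0.02). These were the other pore formers at 0.54 and the granule and secreted proteins at -0.42. The proton pump, metal defence and antioxidant lists had -0.08, -0.07 and -0.09 there, and 0 genes passed the adjusted threshold in each list (limma).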

How the data were processed

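Per the labels' protocols, total RNA of whole blood was extracted with Qiazol and RNeasy and labelled with a 3' IVT kit. What the authors deposited are linear intensities, some below 0, with 1 value per probe set and array, as read from the values themselves. Their software and normalisation are not given in the sources used here. As the arrays shared no scale, which the design had assumed, quantile normalisation, listed as an alternative, became the standard setting.

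The 64 control probe sets were left out, arrays were quantile-normalised, values under 16 were set to 16 (52.7% of values) and log2 was taken. A gene was read from its brightest probe set annotated with it alone, and tested if above the floor on at least 5 arrays (12499 of 18193 genes). A 3' array reads mainly the end of a transcript. The model was a limma fit (version 3.58.1, R 4.3.3; lmFit and eBayes, two-sided) of the group means over all 15 arrays, with 12 residual and 3.904 prior degrees of freedom. P-values were adjusted by Benjamini-Hochberg over all tested genes, with a threshold of 0.05. The median SE of a log2 difference was 0.289, and the 5 arrays per group limit the precision. The fit was tested on simulated data.

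The genes and lists were chosen with earlier results of these data known. The 8 pathway and 9 marker lists name 234 genes; 201 had a probe set and 171 were tested. Named were the 8 genes with all their probe sets, up to 3 genes per pathway list of smallest p at 5 mg/kg, Rac1, Cybc1 and Prf1, defining cell markers and the 5 profiles nearest to Mpeg1, with a choice among these in the text. Part of what the rule covers is left out. Alternatives covered scaling, floor, filter, probe set rule, weights, covariates, a replicate block and leaving out arrays.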

Additional observations from a re-analysis of the deposited data

Results flagged for a closer look

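One of 24 groups of 5 arrays, taken for the 8 genes in the 3 treatment groups, held an array far from the others. It was Lyz2 at 1 mg/kg, where replicate 3 had a log2 intensity of 12.3 (5050 on the linear scale) and the next array 3070. Its gap was 0.867 of the group's range, against a critical value of 0.71 for Dixon's test at 95%. Chance flags about 1 in 20 such groups.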

How the results depend on the processing

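The count of the 7 genes other than Mpeg1 past the adjusted threshold was 0 in each comparison. It became 1 (Ncf1) at 5 mg/kg against vehicle with array weights, and was 0 there under the other 31 alternatives, among them leaving out each array in turn (0 to 0) and leaving out vehicle replicates 1 and 2, added after the data were seen. At 1 mg/kg and between the doses it was 0 under all 32. The log2 difference of Mpeg1, given without a test, ran from -2.39 to -1.86 at 5 mg/kg and from -1.43 to -1.01 at 1 mg/kg. Of the values of the 7 genes under the alternatives, 663 kept their sign and side of the threshold, 1 came to pass it and 8 changed sign. With the monocyte marker mean as a covariate these were Cyba at 5 mg/kg (0.926) and 1 mg/kg (0.369), and at 1 mg/kg Rac2 (0.464), Slc11a1 (0.061) and Lyz2 (0.030). Without scaling they were Lyz2 (0.051) and Ncf1 (0.063) between the doses, and with 18S Rac2 at 5 mg/kg (-0.097). The cause was not tested. Without scaling the median of all genes at 5 mg/kg was 0.102. Replicate numbers are shared by the groups, and the arrays were treated as unpaired. Of 15 same-numbered pairs, 3 correlated above 0.1 (-0.275 to 0.355). Differently numbered pairs were not compared, so these values cannot show whether the numbers pair the arrays. With a replicate block the count at 5 mg/kg was 0, and 9 of all tested genes passed, against 11 without it. Each gene's level rests on 1 brightest probe set and 5 arrays per group, and dim probe sets near the floor of 16 have no order there.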

Other observations

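Like the monocyte and neutrophil markers, the other lists of blood cell markers had 0 members past the adjusted threshold in each comparison (limma). Of 7 NK cell markers 6 were lower at 5 mg/kg (median log2 difference -0.38) and 7 at 1 mg/kg (median -0.55). All 9 platelet markers were lower at each dose (medians -0.22 and -0.40), and 5 of 6 erythroid markers were lower at each dose (medians -0.19 and -0.14). Of 5 dendritic cell markers 5 were lower at 5 mg/kg (median -0.37) and 3 at 1 mg/kg. A single eosinophil and basophil marker of 10 was bright enough to test (0.17 at 5 mg/kg). Between the doses, higher means at 5 mg/kg than at 1 mg/kg were seen for 10 of 10 T cell, 8 of 9 B cell, 7 of 7 NK cell and 9 of 12 neutrophil markers and for 11 of 12 other oxidase genes, with medians of 0.48, 0.63, 0.29, 0.24 and 0.30. At an unadjusted p under 0.05 in limma 4, 3, 0, 1 and 1 of them were higher there, as were 5.26% of all tested genes, and 0 passed after adjustment. Over all tested genes 52.3% had a lower mean at 5 mg/kg than at 1 mg/kg. Rac2, Cyba and Ncf4 had higher means at 5 mg/kg than at 1 mg/kg.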
